A study of Gallus gallus with 4 samples.

Results

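HINTW, HNRNPKL, LOC107049459 and LOC430910 are genes of the chicken W chromosome that were measured by 8 probe sets among the 38535 on the array, and they are described here on the control array and on the 3 arrays of form-deprived eyes. They are 4 of the 17 W chromosome genes, and 4 of the 13051 genes, that had at least 1 probe set annotated to a single gene. They were chosen by their high values on the control array relative to the form-deprived arrays, so the values below describe them and were not tested. The question the comparison addresses is whether the W chromosome genes of the pooled chicks fit the sex given in the labels, which is male for all 4 arrays.

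In birds the female carries a Z and a W chromosome and the male carries a pair of Z chromosomes, so that RNA from W chromosome genes comes from female cells. Most W genes that are still active have a related copy on Z, often of similar sequence. HINTW is a W-linked, multicopy relative of the HINT nucleotide-binding proteins and has lost residues of their catalytic site. HNRNPKL is the W-linked relative of HNRNPK, a protein that binds RNA and takes part in its processing. RefSeq gives LOC107049459 and LOC430910 as protein-coding genes without a gene name.

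The tissue was the combined retina, retinal pigment epithelium (RPE) and choroid from right eyes of Leghorn/New Hampshire chicks, and each array holds the pooled RNA of 5 chicks. The control chicks wore no lens. In form deprivation (FD), a translucent occluder that blurs vision and makes the eye grow too long was fitted on day 2. The FD 0 hr pool was collected with the occluder still in place, and the FD 6 hr and FD 24 hr pools were collected 6 hr and 24 hr after it was removed. The labels give day 11 for the control, FD 0 hr and FD 6 hr chicks and day 12 for the FD 24 hr chicks. They give the length of FD as 7 days in the treatment field, and the treatment protocol gives 10 further days to collection. The methods of the paper differ from the treatment field. There FD lasted 10 days, from day 2 to day 11, and the occluder came off on day 12. With 1 array per condition no difference has a replicate check, and each value carries whatever set its pool apart.

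Of 10 markers of the tissue and of blood, 9 were bright on every array. RPE65, the retinoid isomerase of the RPE, lay between 12.75 and 13.32 on the log2 scale, and OPN1LW, the red cone opsin, between 11.06 and 13.37 and above the FD mean by 1.49 on control. GNAT1, the rod transducin, lay at 5.76 to 5.87, near the background percentile given below and above it on FD 6 hr alone. Of the collagens of the choroid stroma, COL1A1 was above the FD mean on control by 0.69 and COL1A2 stood at -1.09. DCN, the other marker of the choroid stroma, stood at -0.49. The part of these markers in the results below was not tested. Array medians over all probe sets lay between 5.73 and 5.74. The hybridisation controls are transcripts added just before the arrays were hybridised. They were higher on the control array than on FD 0 hr by 0.17 to 0.31. The difference was 1.03 to 3.0 against FD 6 hr and 0.82 to 2.94 against FD 24 hr. For the poly-A controls dap, lys, phe and thr, also added transcripts, control minus FD 0 hr was -0.70 to -0.58. Against FD 6 hr it was 0.44 to 1.39 and against FD 24 hr 0.44 to 1.74, while the poly-A control trp stayed near its FD values. As a guide to background, 744 probe sets named outside the chicken series of the array and paired with no gene had medians between 4.17 and 4.28, and their 95th percentile was 5.89 on control, 5.96 on FD 0 hr, 5.86 on FD 6 hr and 5.92 on FD 24 hr.

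HINTW gave the widest separation. Its brighter probe set, Gga.9713.2.S1_a_at, stood at 12.67 on control, 5.96 on FD 0 hr, 5.77 on FD 6 hr and 5.75 on FD 24 hr. Its FD values were at or under the 95th percentile of the background probe sets, so that a fold change is a lower bound, taken against the higher of that percentile and the FD value. The control array stood at least 105-fold, or 6.71, above the FD arrays, while the FD arrays lay within 0.21 of each other. On the control array this probe set was at percentile 99.6 of all probe sets, and on the FD arrays it was at percentiles 54.3, 50.7 and 50.0. Its measured difference was the first in order of size among all 38535 probe sets. In pooled tissue, fewer female cells and less HINTW RNA per cell cannot be told apart, and neither can the number of chicks that contributed it.

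The other HINTW probe set, Gga.9338.1.S1_at, stood at 6.04, 5.07, 4.97 and 4.92 in the same order of arrays. It was again highest on control, by 0.97 over FD 0 hr, and on control it was 0.08 above the highest of the background percentiles. The difference of 0.97 lay just under the log2 difference of 1 that was used to count a probe set as higher. In RefSeq, HINTW overlaps LOC100857579 and LOC112530493, and how the signal of these and of other HINTW copies divides between the probe sets was not tested.

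LOC430910, the last gene on W in RefSeq order, had 1 probe set. It stood at 8.66 on control, 5.32 on FD 0 hr, 5.42 on FD 6 hr and 5.26 on FD 24 hr. The FD values were all below the 95th percentile of the background probe sets, against which control was at least 6.51-fold higher. As measured, control was 3.24 above the highest FD value. The gene was at percentile 87.0 on the control array and between percentiles 39.3 and 43.2 on the FD arrays.

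LOC107049459 also had 1 probe set. Its values were 7.36 on control, 5.22 on FD 0 hr, 5.14 on FD 6 hr and 5.01 on FD 24 hr. As measured, control was higher than FD 0 hr by 2.14, and against the background percentile it was at least 2.64-fold higher. The FD arrays differed from each other by 0.21. In percentiles the gene stood at 75.0 on control and at 38.0, 36.5 and 33.2 on the FD arrays in order of time. As with LOC430910, no FD value was above the background percentile.

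HNRNPKL was read by 4 probe sets, which differed in how far control stood from the rest. The brightest on control, GgaAffx.12834.1.S1_at, gave 6.77 on control, 4.12 on FD 0 hr, 3.85 on FD 6 hr and 4.04 on FD 24 hr. The FD values were below the background median of the same arrays, and control was at least 1.76-fold above the background percentile. The next, Gga.19575.1.S1_at, gave 5.42 on control against 3.76, 3.58 and 3.56, with every value under that percentile, so that no fold is given for it.

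Gga.4811.3.S1_s_at, whose name marks probes shared by several transcripts, gave 4.87 on control and 3.78, 3.79 and 3.77 on the FD arrays. It held the tightest FD values of the 8 probe sets, within 0.02, and control was 1.08 above the highest of them. Gga.19575.1.A1_at gave 4.67 on control and 4.14, 4.09 and 3.96 on the FD arrays, a difference of 0.53 that fell short of 1. Of the 4 HNRNPKL probe sets, the brightest alone rose above the 95th percentile of the background on the control array, and none did so on an FD array.

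**Figure D1:**
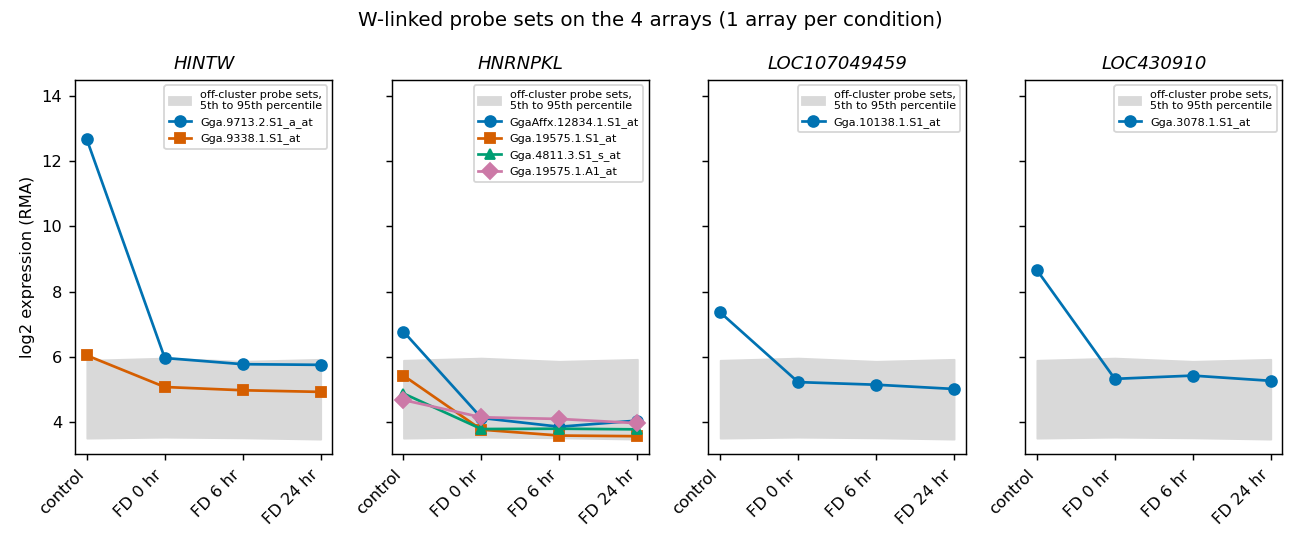
Log2 expression of the 8 probe sets of HINTW, HNRNPKL, LOC107049459 and LOC430910 (y axis) on each of the 4 arrays (x axis, control first and then FD by time), 1 point per array, with the 5th to 95th percentile of the 744 background probe sets in grey. The control value is the highest for every probe set, from 0.53 to 6.71 above the highest FD array, and the FD values of a probe set lie within 0.27 of each other.

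Over the 8 probe sets, 6 were higher on control than on each FD array by at least 1, which is 75.0%. Over all probe sets of the array, 96 were, which is 0.249%, and 106 were lower by at least 1, which is 0.275%. The rule used this contrast, so nothing is read from the count. With each gene taken as the median of its probe sets, all 4 genes were higher by at least 1, against 28 of 13051 genes or 0.215%. The control array was above all FD arrays by any amount for 8 of the 8, and for 28.7% of all probe sets. The probe set just inside the limit of 1 was Gga.4811.3.S1_s_at of HNRNPKL at 1.08, and the one just outside it was Gga.9338.1.S1_at of HINTW at 0.97.

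The FD arrays were close to each other for these genes. The range of a probe set over the FD arrays was 0.02 to 0.27, with a median of 0.19, beside a median of 0.24 over all probe sets. FD 0 hr was the highest of the FD arrays for 6 of the 8. It was above FD 24 hr by 0.01 to 0.21, where the 744 background probe sets had a median difference of 0.07. For 5 of the 8 probe sets the control value was above the 95th percentile of the background, and on the FD arrays this held for HINTW alone, on FD 0 hr, where its brighter probe set was level with that percentile at 5.96. Control stood nearer to FD 0 hr than to FD 24 hr for all 8 probe sets. The share of all probe sets with such an order of the FD arrays was not counted, so nothing is read from these counts. For the brighter HINTW probe set the differences were 6.71 from FD 0 hr and 6.92 from FD 24 hr, and for LOC430910 they were 3.34 and 3.40.

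**Figure D2:**
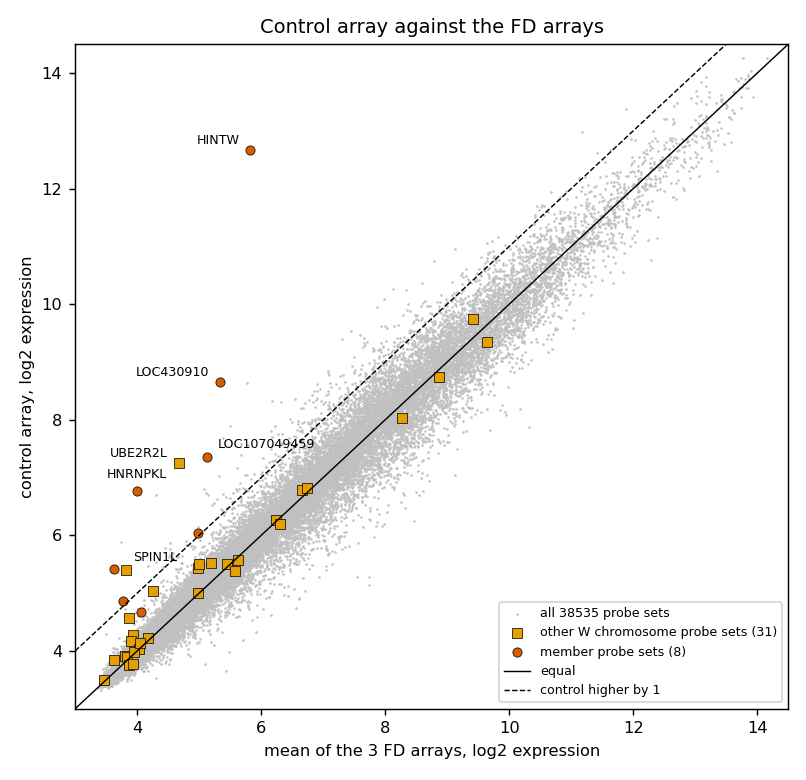
Log2 expression on the control array (y axis) against the mean of the 3 FD arrays (x axis) for all 38535 probe sets (grey), the 8 member probe sets (circles) and the 31 other W chromosome probe sets (squares), with lines at equal level and at control higher by 1. HINTW, at 12.67 on control, lies farthest from the line of equal level, and most other W chromosome probe sets lie along it.

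The array held 31 probe sets for 13 further W chromosome genes. These were left after the 4 genes high on control were taken out, so their counts and median are partly set by that choice. By at least 1, 2 of the 31 probe sets, or 6.45%, were higher on control than on each FD array, and 0 were lower. Over all probe sets the shares were 0.249% higher and 0.275% lower. UBE2R2L, a relative of the ubiquitin-conjugating enzyme UBE2R2, stood at 7.26 on control and at 4.86, 4.65 and 4.50 on FD 0 hr, FD 6 hr and FD 24 hr by Gga.16155.1.S1_at. Its other probe set, Gga.9791.1.S1_at, gave 5.53, 5.25, 5.21 and 5.09, which is highest on control by 0.28. SPIN1L, a relative of the histone reader SPIN1, stood at 5.40 on control and at 3.87, 3.82 and 3.77 on the FD arrays.

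Among the remaining 11 genes the differences were small by gene median. Of the 31 probe sets, control was above all FD arrays by any amount for 15, or 48.4%, beside 28.7% of all probe sets. It was below all of them for 4 and neither for 12. By gene, 10 of the 13 had a control value above the FD mean and 3 had a lower one, with a median of 0.07, against 0.00 over all genes, of which 50.6% were above. LOC374195, which RefSeq also lists as CHD1W, stood by gene median at 4.28 on control and 3.94, 3.84 and 3.79 on the FD arrays. LOC431003 was above the FD mean by 0.45, LOC425347 by 0.16, LOC107055438 by 0.07, LOC426615 by 0.06, LOC426220 by 0.03 and UBAP2L2 by 0.01. Single probe sets could differ more. In LOC374195, GgaAffx.20558.1.S1_at gave 4.57 on control and 3.99, 3.84 and 3.79 on the FD arrays. In UBAP2L2, Gga.15312.1.S1_a_at gave 5.50, 4.98, 4.99 and 5.01, while Gga.15312.2.S1_at and GgaAffx.24283.1.S1_at were below the FD mean on control.

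MBD2, which has the name of a protein that binds methylated DNA, was bright on all arrays at 9.74, 9.51, 9.44 and 9.27. NEDD4L, a ubiquitin ligase, was bright as well and by gene median lower on control, at 8.03, 8.36, 8.26 and 8.17. LOC427025 and LOC427010 were lower on control by gene, each at -0.03, although GgaAffx.25782.2.S1_at of LOC427010 gave 5.03 on control and 4.35, 4.31 and 4.10 on the FD arrays. Placement on W in the assembly therefore did not go with a low level on the FD arrays for every gene. Whether these probe sets read RNA of a related copy on Z was not tested, and neither was the placement itself. Of the 31 probe sets, 22 were under the 95th percentile of the background on every array, and 7 were above it on every FD array. Over all 17 W chromosome genes the median difference was 0.33. Of the 17, 6 were higher by at least 1, the 4 chosen genes among them, beside 0.215% of all genes.

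Among the 10 largest differences over the array, 4 belonged to the genes chosen on this contrast and 1 to another W chromosome gene, UBE2R2L. A further 4 had no gene in the annotation, and 1 belonged to ARHGAP33 on chromosome 24. Of the probe sets without a gene, 3 had FD values within 0.22 of each other. The median range over all probe sets was 0.24, so such a range is not particular to W chromosome genes. The 3 probe sets are named here after their values were seen. GgaAffx.1603.1.A1_at stood at 6.78, 3.91, 4.02 and 3.99, Gga.8237.1.S1_a_at at 6.69, 4.39, 4.17 and 4.34, and GgaAffx.21598.1.S1_s_at at 5.89, 3.78, 3.69 and 3.76. Their chromosome is not known from the tables used here. The 96 higher probe sets had a median FD range of 0.41, and 58 of them had a range of at most 0.5. The 58 include all 6 of the HINTW, HNRNPKL, LOC107049459 and LOC430910 probe sets among the 96. Over all probe sets the upper quartile of the range was 0.40, so nothing is read from these counts.

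Likeness to HINTW was taken as the Euclidean distance between the 4 log2 values of a probe set, centred on their mean, and those of Gga.9713.2.S1_a_at. A probe set with no difference between arrays would lie at 5.93. The nearest gene was LOC430910 at 3.05, followed by HNRNPKL at 3.53, UBE2R2L at 3.69, ARHGAP33 at 3.88 and LOC107049459 at 3.99. Next came NCOA2 at 4.02, a coactivator of nuclear receptors, and KCNA2 at 4.18, a voltage-gated potassium channel. SMARCA4, an ATPase of chromatin remodelling, lay at 4.23, the cathelicidin CATH1 at 4.28 and CSRP1 at 4.30. Of these 10 genes, 4 lie on W, and all of these but UBE2R2L were chosen on this contrast. With 4 arrays the distance mainly ranks how far control stood apart, so nothing is read from the share on W.

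**Figure D3:**
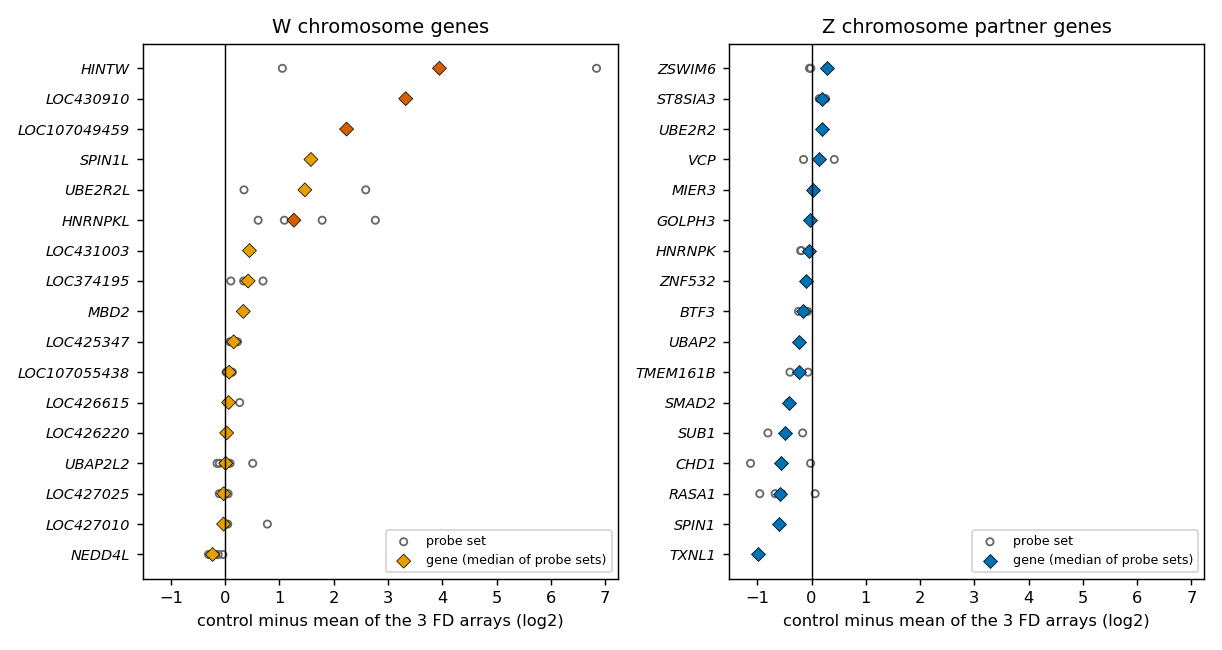
Control minus the mean of the 3 FD arrays on the log2 scale (x axis) for the 17 W chromosome genes (left, members in red and others in orange) and for 17 Z chromosome genes with a listed W relative (right, blue), each gene as the median of its probe sets (diamonds) with its probe sets (open circles). HINTW at 3.95, LOC430910 at 3.33 and LOC107049459 at 2.24 lead the W chromosome genes, and the Z chromosome genes lie between -0.99 and 0.28.

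The Z relatives of W chromosome genes were read on the same arrays. HINT2, which RefSeq also lists as PKCIZ beside PKCIW for HINTW, stood at 11.51 on control, 12.79 on FD 0 hr, 12.34 on FD 6 hr and 12.06 on FD 24 hr. It was thus lowest on control, where HINTW was highest, and it was looked up after the HINTW values were seen. The bright HNRNPK probe set, Gga.4811.2.S1_a_at, gave 10.45, 10.45, 10.79 and 10.67 and shared its lowest value between control and FD 0 hr. SPIN1 stood at 9.59, 10.36, 10.09 and 10.11, lowest on control, while SPIN1L was highest there but under the background percentile.

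UBE2R2 stood at 8.32, 7.81, 8.31 and 8.26, highest on control by 0.01 over FD 6 hr. CHD1, a chromatin remodeller, was below the FD mean by gene at -0.57, with its 2 probe sets at -1.12 and -0.02. UBAP2 was below the FD mean at -0.22. Of the 17 Z relatives measured from a list of 22, 12, or 70.6%, were below the FD mean and 5 above, with a median of -0.16, beside 74.9% and -0.15 for all 606 genes of Z. By at least 1, none of the 17 was higher or lower than every FD array. HINT2, at -0.89 from the FD mean, was not on the list of 22. Among the 17, the 2 with the largest differences were TXNL1 and SPIN1. TXNL1, a thioredoxin-like protein, stood at 9.79 on control and 10.81, 10.87 and 10.66 on the FD arrays. RASA1 followed at -0.57, SUB1 at -0.48 and SMAD2 at -0.42.

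Over the 35 chromosomes with at least 10 genes measured, the Z median of -0.15 was the lowest. The W median was 0.33 over all 17 genes, which include the 4 chosen on this contrast. Without those 4 it was 0.07, and 12 other chromosomes had a higher median, up to 0.20 for chromosome 39. Taking out genes chosen as high on control lowers the W median in advance, so nothing is read from its place. Of the 31 probe sets behind that 0.07, 22 were under the 95th percentile of the background on every array. Of 12228 autosomal genes, 47.6% were below the FD mean. Of the 89 probe sets with 1 gene that were lower on control by at least 1, 42 lie on Z, or 47.2%, and of the 64 with 1 gene that were higher, 0 do, where Z holds 4.35% of all probe sets with 1 gene. The control array is labelled male, and HINTW stood at 12.67 on it, where RNA from W chromosome genes comes from female cells. The sex of the pooled chicks was not tested. The control array is also the array without FD. For genes that both sexes carry, a difference in the sex of the pooled chicks and the lack of an occluder therefore cannot be told apart by these 4 arrays alone. What set the W chromosome genes apart between the arrays was not tested.

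**Figure D4:**
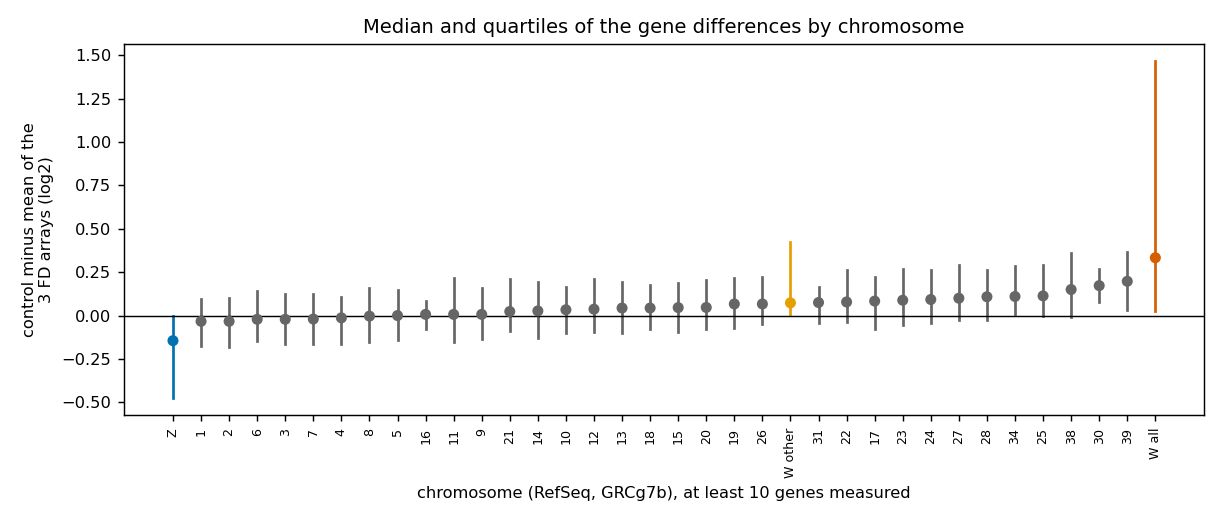
Median (points) and quartiles (lines) over genes of control minus the mean of the 3 FD arrays on the log2 scale (y axis) for each chromosome with at least 10 genes measured (x axis, in order of the median). Chromosome W with all 17 genes (red, W all) stands at 0.33, and chromosome Z (blue) is lowest at -0.15. The 13 W genes left after the choice (orange, W other) stand at 0.07 with quartiles of 0.01 and 0.42. Their median lies among those of the autosomes and is partly set by the choice of genes high on control. By at least 1, 15.4% of the 13 were higher, beside 0.215% of all genes. Of their 31 probe sets, 22 were under the 95th percentile of the background on every array.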

How the data were processed

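The authors hybridised 1 Affymetrix chicken array per condition with RNA pooled from 5 chicks, and probe sets were summarised by RMA in Affymetrix Expression Console. MAS5 also appears in the submitters' processing notes. The deposited values are log2 expression with 2 decimals, 1 value per probe set, and were used as they stand. The methods describe a run of these arrays on their own and a joint run with the arrays of an earlier induction study, and from which of them the deposited values come was not determined. Genes were assigned to probe sets from the platform annotation. Of 38535 probe sets, 27178 had 1 gene and were used for gene values, 177 had several and 11180 had none. Chromosomes, order and synonyms came from RefSeq for GRCg7b, and no coordinates are printed.

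A probe set was counted as higher or lower where control differed from every FD array by at least 1. No test was run with 1 array per condition, and precision is limited by the number of arrays. Probe sets with different probes were not compared in level. The genes named are the members, every other W chromosome gene measured and the Z relatives of W chromosome genes with a named copy. Also named are the 6 listed Z relatives with the largest differences, the 10 genes most like HINTW, and tissue markers. UBE2R2, UBAP2 and HINT2 were added after their values were seen. The members and lists were chosen with earlier results of these data known. Alternatives were quantile normalisation, centring, each FD array as the reference, the mean or the brightest of a gene's probe sets, other limits, and leaving out probe sets with names in _s_at, _x_at or _a_at. The counting was tested on simulated arrays in which known probe sets were raised or lowered well past the limit of 1. How it behaves near the limit was not tested. Python 3.11.15, NumPy 2.4.6, pandas 2.3.3 and Matplotlib 3.10.9 were used.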

Additional observations from a re-analysis of the deposited data

How the results depend on the processing

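Of 66 recomputed values, 58 stayed within the spread among probe sets of 1 gene (SD 0.27) or, for counts, within 1.5 times, and 0 changed sign. Some of these outcomes were fixed in advance. LOC107049459 and LOC430910 have 1 probe set each, so the way probe sets are combined cannot move them, and a count cannot change sign. The SD of 0.27 is larger in size than the medians of the other W chromosome genes and of the Z relatives, so staying within it says little for those medians. HINTW, at 3.95 as the median of its probe sets, was 6.84 with the brightest probe set and 1.05 without the _a_at probe set. HNRNPKL, at 1.27, was 1.56 as a mean and 2.77 with the brightest probe set. LOC107049459 ranged from 2.14 to 2.35 and LOC430910 from 3.24 to 3.40. The count of 6 member probe sets ranged from 4 to 8. Over all probe sets, 96 higher became 821 at a limit of 0.5, 10 at a limit of 2, and 63 without _s_at, _x_at and _a_at probe sets. Against FD 6 hr and FD 24 hr only, an alternative chosen after seeing the data, it was 151. The median of the other W chromosome genes ranged from 0.07 to 0.30 and that of the Z relatives from -0.22 to -0.12. No paired analysis was possible because each group had 1 array. Signals near the background limit what dim probe sets show, and a low value is not a lack of RNA.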
